A study of Mus musculus with 6 samples.

Results

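Enterochromaffin cells, the serotonin-producing endocrine cells of the gut, made up 701 of the 87954 cells kept from 6 single-cell RNA libraries of mouse small intestinal organoids. A cell was kept if it had 1000 or more genes and less than 20% of its unique molecular identifiers (UMIs) on mitochondrial genes. A kept cell was then called enterochromaffin if Chga and Chgb, which encode the chromogranins of endocrine granules, together had 10 or more of every 10000 UMIs, if Tph1, which encodes the rate-limiting enzyme of serotonin synthesis in the gut, had 2 or more UMIs, and if Neurog3, the transcription factor that starts endocrine differentiation, had fewer than 2. The cells were selected on the measured levels of these 4 genes, so their levels are given as a description and no test of them is reported. They were left out of the test between cell classes. In the tests of treatment they stayed in the counts of genes tested.

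Enterochromaffin cells are the most widespread endocrine cells of the intestine. They convert tryptophan to serotonin with Tph1 and Ddc, load it into granules, and release it towards nerves and neighbouring cells when irritants, nutrients, stretch or hormones reach them. In the mouse small intestine many of them also make tachykinins from Tac1, and they arise from Neurog3-positive progenitors through factors that include Nkx2-2 and Lmx1a.

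The study used the libraries to ask how the control of intracellular pH bears on the cell types of the intestinal epithelium. Wild-type (WT) organoids, from stocks derived from adult mice of 10 weeks of age, gave 2 libraries labelled -EIPA and 2 labelled +EIPA at day 3. EIPA, an amiloride derivative that inhibits sodium-proton exchange, was given at 5 µM for 3 days, and the -EIPA organoids had the vehicle DMSO. The 2 remaining libraries came from CRISPR organoids, which are WT organoids carrying a lentiviral vector with a guide RNA and a doxycycline-inducible Cas9 joined to green fluorescent protein (GFP), either without doxycycline (-Dox) or with 2 µg/mL of it (+Dox), and the labels name the +Dox library a knockout of the gene that the guide RNA targets. The CRISPR organoids are 1 selected line, and the +Dox cells were sorted as live and GFP-positive while the other libraries were sorted for live cells only, so a Dox difference cannot be told apart from the sort or from the single preparation of each. All organoids grew in medium with EGF, noggin and R-spondin, in cultures without stroma, nerves or microbes.

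The libraries held 161670015 to 239368573 UMIs in 12083 to 18211 kept cells, and the enterochromaffin cells held 65451 to 2309174 UMIs. The -Dox sum was the smallest, and a gene with no UMI there could have up to 45.8 CPM (counts of a gene in every 1000000 UMIs summed over a set of cells) by the limit that 3 counts set. Values per library are given in the order -EIPA 1, -EIPA 2, +EIPA 1, +EIPA 2, -Dox and +Dox, or the first 4 of these where WT libraries alone are given. Coordinates are of the mm10 build.

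The label was checked against Tac1, the given marker that the rule did not use. At least 1 Tac1 UMI was found in 89.9, 95.8, 91.8, 92, 77.8 and 65.9% of the enterochromaffin cells. In the most similar cells, those that met the same lower limit of Chga and Chgb, with Neurog3 under 2 and no Tph1 UMI (1162 cells, called other Chga/Chgb-high cells below), the share was 3.26 to 21.4%. Every library had more Tac1-positive cells in the enterochromaffin class. The classes share the Chga and Chgb limit but were not matched above it. The 16 granule genes, Chga and Chgb among them, summed to 49408, 29867, 34892 and 39567 CPM in WT enterochromaffin cells. The other class had 9691, 7661, 9507 and 7689 CPM.

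The rule drew a line through a graded population. The median enterochromaffin cell had 9, 7, 10, 11, 6 and 6 Tph1 UMIs and 557, 382, 493, 547, 432 and 137 Chga and Chgb UMIs of every 10000, both far from their limits. Just inside the Tph1 limit, 10, 17, 11, 9, 2 and 7 cells had exactly 2 UMIs, and 60, 94.1, 90.9, 55.6, 100 and 57.1% of them had a Tac1 UMI. Just outside it, 22, 28, 16, 13, 4 and 7 cells had 1 Tph1 UMI, with Tac1 in 36.4, 75, 37.5, 69.2, 75 and 57.1%, a lower share than just inside in 4 of 6 libraries. Tph1 background was taken from 1151 to 4343 cells per library that were gated on enterocyte genes and had no Chga or Chgb UMI. Of these, 0.0461 to 1.74% had a Tph1 UMI and 0% had 2 (which allows up to 0.261% in the smallest of these sets). Enterocyte-gated cells with a Chga or Chgb UMI were left out, so the Tph1 background among them was not measured. Median depths were 11306 to 16918 UMIs in the gated cells, against 4286 to 10514 in enterochromaffin cells. A further 59, 134, 86, 65, 9 and 33 cells had 2 or more Tph1 UMIs but also 2 or more of Neurog3, and stayed outside.

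Some of the cells scored like doublets. The doublet score was set to mark the top 10% of cells in each library, and it marked 16.2, 26.4, 30.8, 21.7, 11.1 and 34.1% of enterochromaffin cells against 21, 14, 14.9, 12, 13.2 and 7.61% of the other Chga/Chgb-high cells. The marked cells were deep, and held 30.4, 54.6, 54.4, 50.7, 32.6 and 58.5% of all enterochromaffin UMIs. Results that change when they are removed are given both ways.

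What set these cells apart from their nearest relatives was tested first, by summing the UMIs of each class in each of the 6 libraries and fitting the classes with the library as a block. Outside the 4 genes of the rule, 831 of 9490 genes differed (8.76%) at an adjusted p under 0.05 (edgeR quasi-likelihood F-test, Benjamini-Hochberg), of which 423 were higher in enterochromaffin cells (4.46%) and 408 were lower (4.3%). Slc18a1, Tac1, Lmx1a and Trpa1 were among the higher genes, and Ghrl, Pyy and Nts, which encode ghrelin, peptide YY and neurotensin, were among the lower ones. Counts in the following paragraphs are out of each list's tested members, to be read against these 2 percentages and against a median log2 difference of 0.02 over all 9490 genes.

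Of 14 tested genes of serotonin synthesis, storage and breakdown, 5 were higher and none was lower, with a median log2 difference of 0.25. The largest difference was in Slc18a1, the vesicular transporter that loads serotonin into granules, with 272, 212, 194, 259, 275 and 156 CPM in enterochromaffin cells and 63.7, 62.4, 63.1, 61.5, 149 and 81.2 in the other cells. Its groups did not overlap (log2 difference 1.71 ± 0.14 SE, adjusted p = 2.19e-07), and it was higher in the enterochromaffin cells of 6 of 6 libraries. Ddc, which makes serotonin from its hydroxylated precursor, had 617, 507, 401, 549, 413 and 269 CPM against 309.8, 364, 307, 379, 457 and 213, a small difference (log2 0.53 ± 0.12 SE, adjusted p = 0.00625) that was reversed in -Dox. Gch1 and Qdpr, which make and recycle the tetrahydrobiopterin cofactor of Tph1, differed by 0.62 ± 0.11 SE and 0.64 ± 0.13 SE on the log2 scale (adjusted p = 0.00133 and 0.00314), and Maob, a monoamine oxidase, by 1.24 ± 0.23 SE (adjusted p = 0.00246). Tph1 itself had 1615, 1039, 1122, 1342, 856 and 569 CPM (chr7:46644641-46672537), and the serotonin reuptake transporter Slc6a4 had at most 6.29 CPM in any library.

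The hormone genes divided between the classes. Of 11 tested members, 3 were higher in enterochromaffin cells and 8 were lower, with a median of -4.50. Summed over the list of 17 genes, the other class had 49918, 61291, 63552, 73358, 2467 and 1273 CPM. The enterochromaffin sums were 8984, 3351, 4890, 3578, 2750 and 1621 CPM, lower in every WT library but higher in -Dox and +Dox. These sums include Afp, 1 of the 3 higher members. It gave 3968 CPM in -EIPA 1 and 1992 in +EIPA 1, but 126 in -EIPA 2 and 89.3 in +EIPA 2. Tac1 (chr6:7554879-7565834) had 2816, 2259, 1562, 2099, 1406 and 764 CPM against 69.7, 62.8, 109, 72.6, 44.6 and 7.79 (log2 5.00 ± 0.22 SE, adjusted p = 3.53e-11). Ucn3, a stress peptide of the corticotropin-releasing family, differed by 4.07 ± 0.31 SE (adjusted p = 7.83e-08). Afp, which is the secreted plasma protein alpha-fetoprotein rather than a hormone, had 3968, 126, 1992, 89.3, 45.8 and 123 CPM against 106, 0.795, 0.485, 0, 3.72 and 3.34, and among the WT enterochromaffin sums both libraries numbered 1 were far above both numbered 2.

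The lower hormones belong to other endocrine fates. Ghrl, the ghrelin gene, had 57.3, 29.8, 39, 21.1, 0 and 3.14 CPM in enterochromaffin cells against 4222, 5501, 3888, 2320, 331 and 453 in the other cells, with every enterochromaffin sum below every other sum (log2 -6.77 ± 0.19 SE, adjusted p = 2.51e-13). Pyy, Gcg, Gip and Nts, which encode peptide YY, proglucagon, the glucose-dependent insulinotropic peptide and neurotensin, had log2 differences of -7.12, -7.79, -7.67 and -6.76 (SE 0.28, 0.48, 0.45 and 0.53). Sct, the secretin gene, was lower as well, with 594, 383, 770, 570.2, 0 and 37.7 CPM against 3712, 5087, 5800, 7294, 159.8 and 105 (log2 -3.01 ± 0.24 SE, adjusted p = 1.07e-07). The differences of Cck and Iapp, which encode cholecystokinin and amylin, were -4.50 ± 1.02 SE and -0.95 ± 0.20 SE. Sst, which marks D cells, did not pass the filter on low counts and had 0 to 2.60 CPM in enterochromaffin cells against 763 to 1209 in the other cells of the WT libraries.

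Of 23 tested endocrine transcription factors, 5 were higher and 10 lower (median -0.29). Lmx1a (chr1:167689237-167848741), a homeodomain factor required for Tph1 expression, had 131, 92.5, 71, 102, 30.6 and 56.6 CPM against 2.65, 1.19, 3.40, 1.74, 7.43 and 3.34, and no enterochromaffin sum overlapped the other class (log2 5.18 ± 0.24 SE, adjusted p = 9.4e-11). Both -Dox values, 30.6 and 7.43 CPM, lay under the 45.8 and 11.1 CPM that 3 UMIs give in these sums. Mnx1, Foxa1, Runx1t1 and Nkx2-2 were higher by 2.23 ± 0.32, 1.32 ± 0.12, 1.06 ± 0.16 and 0.72 ± 0.16 (log2 ± SE). Among the lower genes were the ETS-family factor Etv1 (-2.48 ± 0.27) and Isl1 and Pax6, factors of hormone-producing islet and gut cells, with log2 differences of -6.35 ± 0.30 and -2.70 ± 0.30 (± SE). Neurod1, Insm1 and Rfx6, which act in all endocrine lineages, were lower by less (-0.81 ± 0.16, -0.56 ± 0.15 and -0.64 ± 0.15), and Fev, a factor of serotonergic neurons and endocrine progenitors, did not pass the test (0.32 ± 0.11 SE, adjusted p = 0.0864).

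The receptors and channels gave 6 higher and 4 lower of 17 tested, from a list of 34 of which the rest were too low to test. Trpa1 (chr1:14872648-14918862), the channel for chemical irritants, had 194, 66.1, 118, 70.3, 45.8 and 11 CPM in enterochromaffin cells against 5.97, 4.37, 2.43, 1.74, 0 and 0 in the other cells (log2 4.91 ± 0.22 SE, adjusted p = 5.91e-11). Its -Dox value of 45.8 CPM is the level that 3 UMIs give in that sum. Olfr558, an odorant receptor that binds branched short-chain fatty acids, had 102, 122, 114, 164, 76.4 and 37.7 CPM against 0 to 1.99 (log2 6.62 ± 0.23 SE). Both were higher in the enterochromaffin cells of every library. Olfr78, a second fatty acid receptor of this kind, was too low to test and had 23.7, 22.4, 30.7, 27.4, 0 and 23.6 CPM against 0 to 0.581. The remaining 4 higher genes were Trpm2 and Ffar2, a cation channel and the short-chain fatty acid receptor (3.18 ± 0.26 and 1.34 ± 0.19, log2 ± SE), and the voltage-gated sodium and calcium channels Scn3a and Cacna1d (2.47 ± 0.19 and 2.15 ± 0.23). Ffar1 and Ffar4, receptors for long-chain fatty acids, and the somatostatin receptor Sstr5 were lower (-5.38 ± 0.29, -2.20 ± 0.24 and -1.10 ± 0.31). The mechanosensitive channel Piezo2 had no UMI in either class in any library, which allows up to 0.419 CPM over all enterochromaffin cells.

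Granule and exocytosis genes changed member by member. Of 13 tested granule proteins and processing enzymes, Ptprn, Vgf and the prohormone convertase Pcsk1 were higher (2.16 ± 0.16, 1.65 ± 0.21 and 1.28 ± 0.16), and Scg2, Cpe, Ptprn2 and the calcium sensor Scgn were lower, led by Scgn and Scg2 (-5.43 ± 0.21 and -4.37 ± 0.32). The call for Cpe, a carboxypeptidase, held under 8 of 15 alternatives. Of 15 tested exocytosis genes, the vesicle GTPase Rab3c, the SNARE protein Snap25 and the release-site scaffold Rims2 were higher (2.81 ± 0.36, 1.36 ± 0.14 and 0.62 ± 0.18), and the calcium sensor Syt7 was lower (-0.46 ± 0.13). Of 16 tested acid-base genes, a list of transporters and carbonic anhydrase family members, Car9 was higher and Car8 lower (0.51 ± 0.15 and -0.91 ± 0.22). Both belong to the carbonic anhydrase family.

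Several of the largest differences lay outside these lists. Nptx2, a secreted neuronal pentraxin, had 116, 92, 129, 155, 30.6 and 17.3 CPM against 0 to 0.795 (log2 7.68 ± 0.26 SE, adjusted p = 2.34e-12). Reg4 (chr3:98222156-98236748), a secreted lectin, had 10950, 4839, 9676, 8776, 4690 and 5216 CPM against 249, 541, 65.5, 300.1, 167 and 194 (log2 5.06 ± 0.37 SE). Pappa2, a protease of insulin-like growth factor binding proteins, had 517, 309.8, 364, 512, 199 and 368 CPM against 2.91 to 14.9. All 3 were above the other class in every library, as were Tpbg, Slc38a11 and Cwh43 (log2 6.32 ± 0.24, 5.74 ± 0.30 and 5.12 ± 0.29, ± SE). The -Dox value of Nptx2 lay under the 45.8 CPM that 3 UMIs give in that library. On the low side stood Sphkap, Gpr22, Serpina1c, Myl7 and Mctp2, with log2 differences from -3.54 to -2.91. The genes of largest difference plotted by library were all called under every alternative that tested them.

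**Figure D1:**
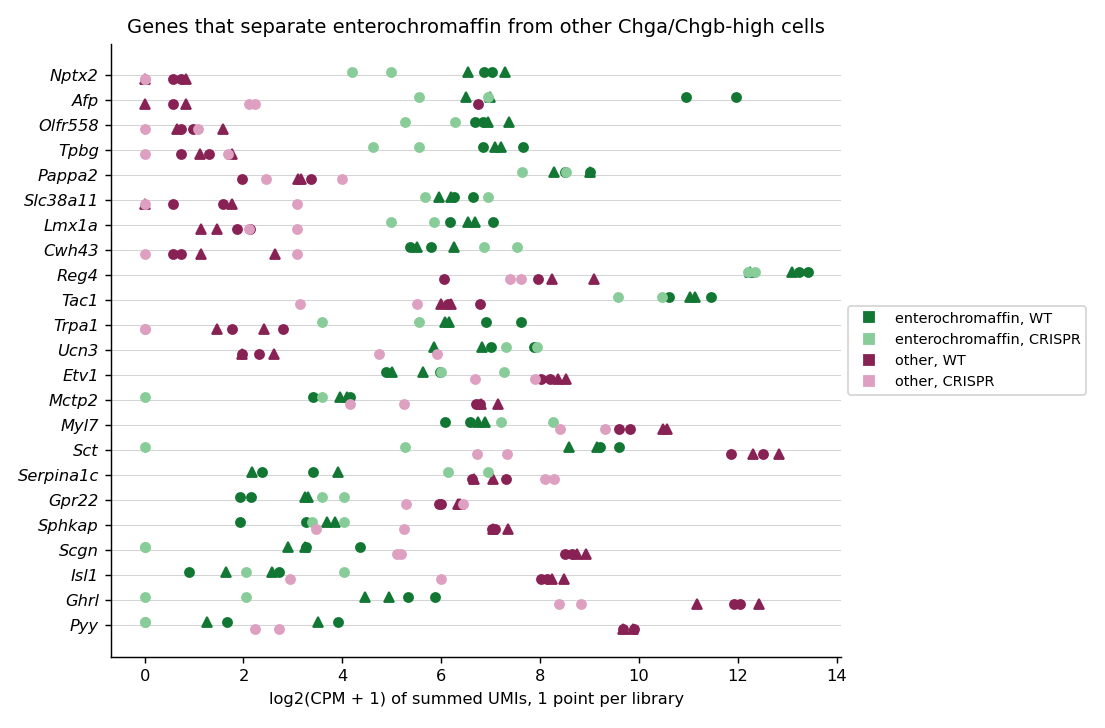
Levels of 12 genes of largest difference on the higher and 11 on the lower side, as log2(CPM + 1) of the UMIs summed over enterochromaffin cells (green) or other Chga/Chgb-high cells (purple), 1 point per library, circles for replicate 1 and triangles for replicate 2. The green and purple points stand apart for most genes, and Afp spans 45.8 to 3968 CPM among the enterochromaffin sums.

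Markers of other cell types and stress genes were compared between the classes as well. None of the tested goblet (6), stem cell (8) or cycling (8) markers was called, Mmp7 was the 1 of 9 Paneth markers called (higher, list median 0.58), and no tuft marker was high enough to test. Of 14 enterocyte markers 3 were higher (Apoc3, Alpi and Khk) and 2 lower (Sis and Anpep), with a median of 0.36. The neuronal RNA-binding protein Elavl4 was the 1 member of the non-epithelial list tested, and it was lower. Summed, the 8 genes of that list had 27.9, 19.9, 18.6 and 18.3 CPM in WT enterochromaffin cells. They had 18.6, 13.5, 12.6 and 9.87 in the other class and 2.08, 2.13, 2.38 and 1.72 over all kept cells. In -Dox the class sums were 45.8 and 33.4 CPM, and in +Dox 6.29 and 25.6, the opposite order. Of 13 ATF4 targets, Atf3, Asns and Psat1 were higher, and of 13 immediate early genes Fos, Fosb and Atf3 were higher, with list medians of 0.11 and 0.14. With the doublet-scored cells removed, 912 genes were called, and of the 758 original calls that were still tested 574 stayed called and 4 changed direction.

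The enterochromaffin cells were not uniform. When the cells were divided by their Reg4 level, those with 50 or more Reg4 UMIs of every 10000 made up 38.4, 28.2, 48.2, 44.2, 44.4 and 27.3% of the class. This division was made after the levels were seen and is a description of the 4 WT libraries only. Trpa1 had 437, 178, 262 and 159 CPM in the Reg4-high cells and 64.3, 37, 28.8 and 28 in the Reg4-low cells. Ucn3 had 597, 221, 298 and 282 CPM against 40.7, 14.4, 20.4 and 31.1. Olfr558 had 220.5, 312, 230.4 and 367 CPM against 38.6, 72.8, 41.4 and 67.4. The ranges of the 2 groups did not overlap for these 3 genes, which were chosen after their values were seen, and the Reg4-low cells had UMIs of all 3.

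Chga had 13713, 12337, 11204 and 19981 CPM in Reg4-high cells and 1994, 2766, 2196 and 2746 in Reg4-low cells. The rule chose the cells on Chga and Chgb together, so these values are a description and nothing is drawn from them. Lmx1a had 188, 175, 105 and 203 against 101, 70.9, 49.9 and 53.9 CPM and was higher in Reg4-high cells within each library. Tac1 did not follow Reg4, with 2265, 2804, 2131 and 3668 CPM in Reg4-high and 3111, 2117, 1209 and 1353 in Reg4-low cells, higher in the first group in 3 libraries and in the second in -EIPA 1. Without the doublet-scored cells Trpa1 still had 501, 224, 428 and 211 CPM in Reg4-high and 70.3, 61.7, 31.5 and 48 in Reg4-low cells.

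A few cells inside the class had a single Neurog3 UMI, at 15, 35, 22, 23, 1 and 12 cells. They are set here between the remaining class and the cells outside it that had 2 or more UMIs of both Neurog3 and Tph1. Reg4 had 12825, 5532, 10817 and 10112 CPM in the WT cells with no Neurog3 UMI, 198, 162, 1969 and 1645 in those with 1, and 82, 320.5, 607 and 834 in those outside, so the middle group lay between the others in 3 of 4 libraries. Trpa1 ran from 221, 72.5, 134 and 80.1 through 37.6, 23.1, 10.1 and 17.8 to 11.7, 4.57, 3.13 and 15.1 CPM, in that order in every library. Tac1 had no such order, with 2669, 2087, 1640 and 2123, then 3659, 3425, 1035 and 1970, then 2718, 1623, 2204 and 1964 CPM, and its ranges overlapped.

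**Figure D2:**
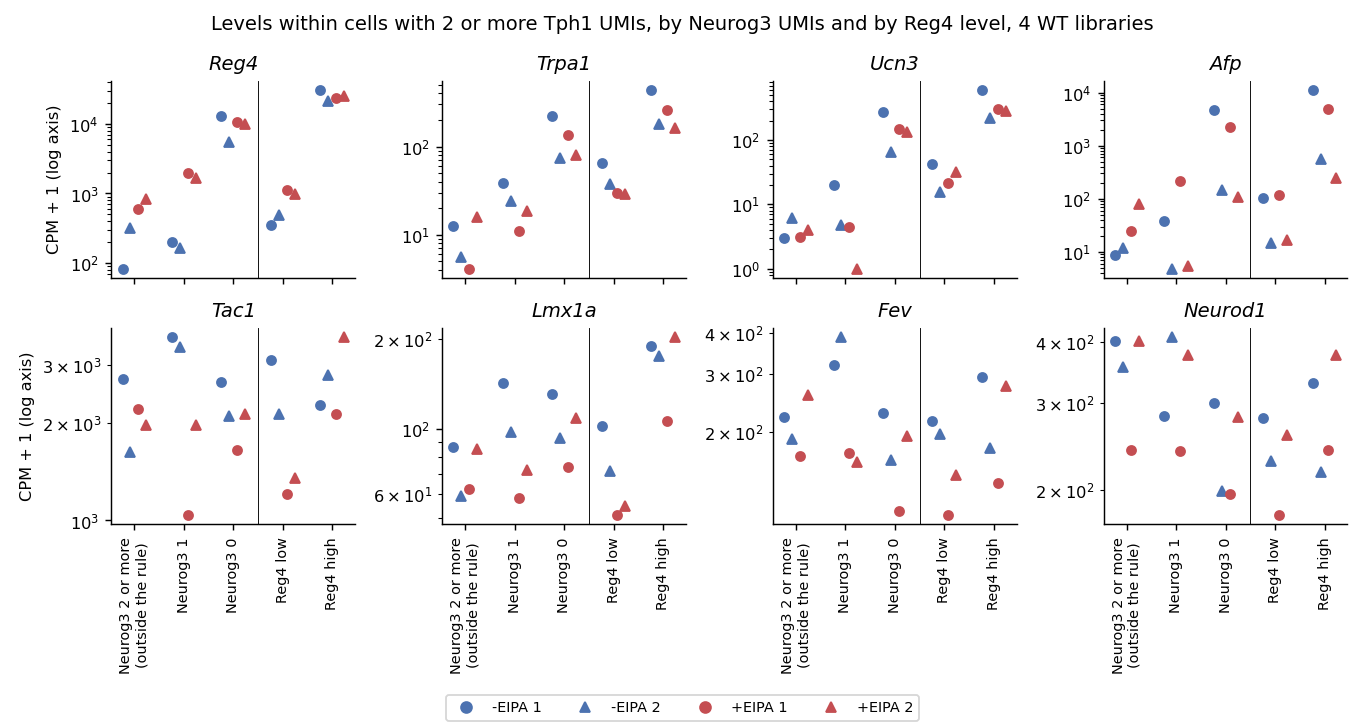
Levels of 8 genes as CPM + 1 on log axes in cells with 2 or more Tph1 UMIs, divided by Neurog3 UMIs (left of each line) and by Reg4 level (right), 1 point per WT library. Reg4, Trpa1, Ucn3 and Afp are highest in every library where Neurog3 has no UMI, while Tac1, Fev and Neurod1 overlap between the groups.

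Peptide genes were shared unevenly among single cells. Each enterochromaffin cell of 5000 or more UMIs was thinned to 5000, which left 64, 141, 138, 104, 3 and 37 cells, and a cell was counted at 2 or more UMIs. Tac1 was then found in 87.5, 85.1, 72.5, 79.8, 33.3 and 40.5% of cells (before thinning 84.8, 92.1, 89.2, 87, 77.8 and 61.4%), and Sct in 32.8, 30.5, 37, 49, 0 and 8.11% (before thinning 33.3, 43.1, 52.8, 65.2, 0 and 9.09%). The share of Sct-positive cells in a cell type that should lack it was not measured. Afp was found in 29.7, 12.1, 32.6 and 7.69% of the WT cells, more often in both libraries numbered 1. Ucn3 was found in 25, 5.67, 15.2 and 12.5%, Cck in 4.69, 6.38, 8.70 and 17.3% and Iapp in 1.56, 3.55, 3.62 and 11.5% of the same libraries. In +Dox, the shares of Afp, Ucn3, Cck and Iapp were 16.2, 18.9, 27 and 29.7% of 37 cells, and those of Cck and Iapp lay above every WT library. Cartpt, which encodes a neuropeptide, was found in 12.5, 0, 8.70 and 0.962% of the WT cells (the exact 95% interval of the 0% reaches 2.58%), and Gip in 3.12, 6.38, 3.62 and 4.81%.

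The +EIPA minus -EIPA difference in the Tac1 share was -10.2 percentage points after thinning and -0.395 before it. Without the doublet-scored cells it was -4.85 points, and the groups overlapped. It was -11.3 points after thinning to 2000 UMIs and -6.68 at 1 or more UMI, and in both, as after thinning to 5000, both +EIPA libraries lay below both -EIPA libraries. That in the Sct share was 11.3 points after thinning and 20.8 before it, 16.5 without the doublet-scored cells and 12.1 after thinning to 2000 UMIs, and both +EIPA libraries lay above both -EIPA libraries each time. An exact permutation test of 2 against 2 libraries cannot go below p = 0.333, so no share was tested further. The 3 thinned cells of -Dox allow no statement on a share.

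**Figure D3:**
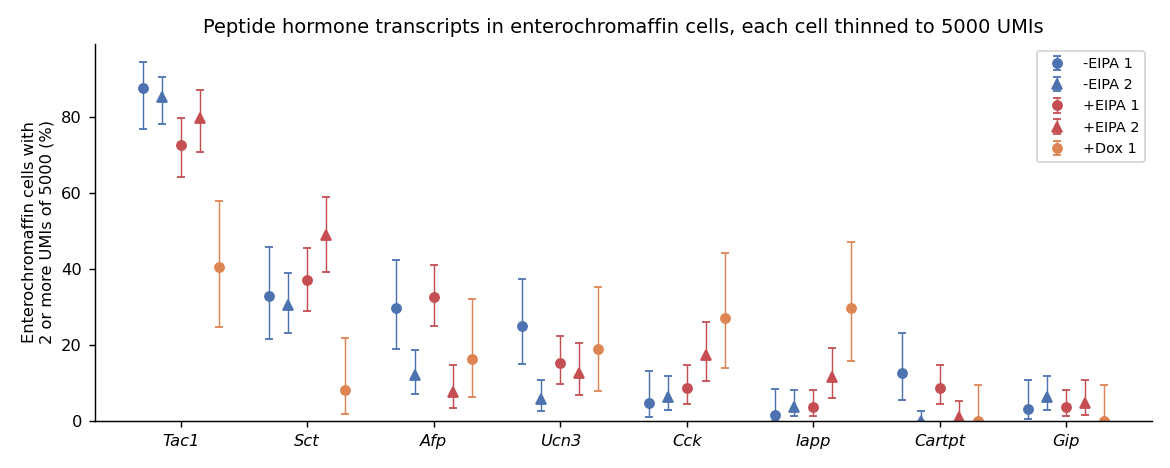
Percent of enterochromaffin cells with 2 or more UMIs of each peptide gene after thinning to 5000 UMIs, with 95% exact binomial intervals that cover counting error only; -Dox, with 3 cells, is left out. Tac1 is the most frequent, and Afp and Cartpt are more frequent in both WT libraries numbered 1 (circles).

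Enterochromaffin cells were 0.785, 1.19, 1.48, 0.968, 0.0511 and 0.364% of the kept cells, from 99, 216, 195, 138, 9 and 44 cells. In the first WT pair the share was 1.88 times as high with EIPA, and in the second it was 0.816 times as high, so the WT libraries disagreed in direction (mean ratio 1.35 ± 0.754 SD, n = 2, two-sided exact permutation p = 0.667). Among Chga/Chgb-high cells with Neurog3 under 2 the enterochromaffin share was 28, 37.2, 42.5, 39.3, 13.6 and 30.8%. Both +EIPA libraries were above both -EIPA libraries, with ratios of 1.52 and 1.06 (mean 1.29 ± 0.328 SD, n = 2, exact permutation p = 0.333, the smallest possible). The order did not hold when cells needed 2000 genes and less than 10% mitochondrial UMIs, where the second ratio was 0.995, and the mean ratio was 1.09 after thinning to 5000 UMIs.

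The CRISPR organoids held fewer enterochromaffin cells than the WT organoids, at 0.0511% without and 0.364% with doxycycline, a ratio of 7.12 that rests on 9 and 44 cells. Of their Chga/Chgb-high cells, 13.6% and 30.8% were enterochromaffin. Every CRISPR share of kept cells lay below every WT share. Chga/Chgb-high cells with Neurog3 under 2 were also fewer as a whole, at 66 of 17598 kept cells in -Dox and 143 of 12083 in +Dox. The WT libraries had 354 of 12606, 580 of 18211, 459 of 13194 and 351 of 14262. The other class, with no Tph1 UMI, had 53 cells in -Dox and 92 in +Dox. The +Dox library was also the deepest, with a median of 17020 UMIs per kept cell against 11952 in -Dox, and the ratio was 8.35 with cells thinned to 5000 UMIs, which left out 1751 and 690 shallower cells, 5.62 with cells thinned to 2000 UMIs, and 5.28 without the doublet-scored cells.

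**Figure D4:**
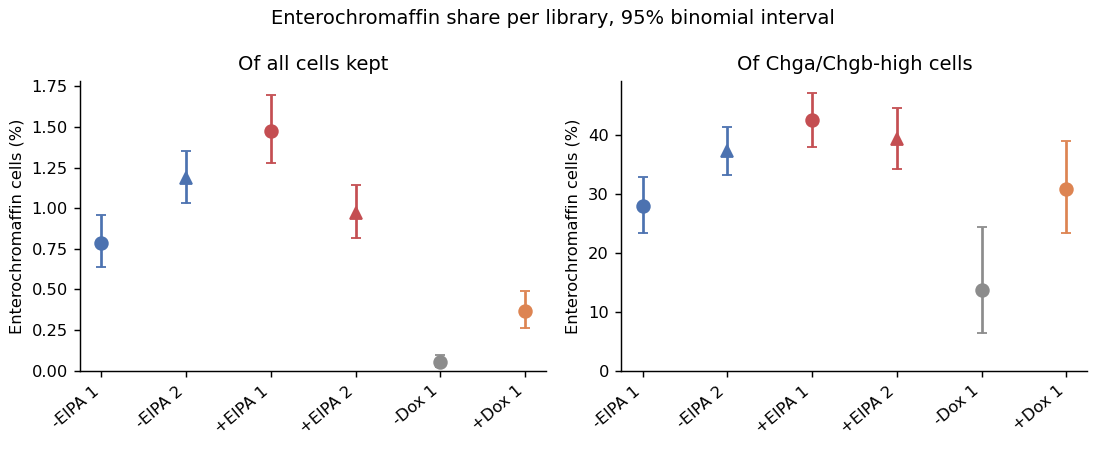
Enterochromaffin cells as a percentage of all kept cells (left) and of Chga/Chgb-high cells with Neurog3 under 2 (right), 1 point per library with 95% exact binomial intervals that cover counting error only. The WT libraries lie between 0.785% and 1.48% of kept cells, and -Dox and +Dox at 0.0511% and 0.364%.

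The effect of EIPA within enterochromaffin cells was tested on sums per library, 2 against 2. Of 9944 genes, 38 were higher (0.382%) and 1 was lower (0.0101%) with EIPA (edgeR, adjusted p under 0.05). No member of the serotonin (16 tested), granule (15), hormone (12), transcription factor (23), receptor and channel (19) or exocytosis (16) lists was called in either direction, with median log2 differences from -0.37 for transcription factors to 0.10 for serotonin genes, against 0.004 over all genes. The serotonin, granule and transcription factor counts include genes of the rule. Those genes chose the cells, so nothing is drawn from their results. With the replicate number as a block 2 hormone genes were called, Iapp higher (adjusted p = 2.48e-05) and Pyy lower (adjusted p = 0.00698), and no member of the other 5 lists. The genes that were higher included transcripts of absorptive and Paneth cells.

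The serotonin genes Ddc and Slc18a1 had overlapping levels in the 4 libraries. Ddc had 617, 507, 401 and 549 CPM and Slc18a1 272, 212, 194 and 259, and the libraries of both groups overlapped for each. Tph1, a gene of the rule, had 1615, 1039, 1122 and 1342 CPM, which is given as a description only. Tac1 had 2816, 2259, 1562 and 2099 CPM (log2 -0.35 ± 0.29 SE, adjusted p = 1), lower in both +EIPA libraries but not past the test. Reg4 had 10950, 4839, 9676 and 8776 CPM (log2 0.35 ± 0.39 SE), and its groups overlapped. Sct had 594, 383, 770 and 570.2 CPM, where +EIPA 2 lay below -EIPA 1 (log2 0.59 ± 0.28 SE, adjusted p = 1). Of 23 transcription factors, 2 had a positive estimate, but none passed the test.

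The 10 genes of largest difference among those called and above 20 CPM were Sprr1a, Defa30, Gm14851, Apoa1, Apoc2, Cyp3a11, Guca2b, Mt4, Apoc3 and Gm3776, with log2 differences from 4.08 to 2.25. Apoa1, an apolipoprotein that enterocytes secrete, had 120.1, 190, 1142 and 835 CPM in -EIPA 1, -EIPA 2, +EIPA 1 and +EIPA 2 (log2 2.77 ± 0.30 SE, adjusted p = 0.000545). Sprr1a, a small proline-rich protein of stressed epithelia, had 6.98, 0.995, 54.1 and 29.5 CPM (log2 4.08 ± 0.56 SE, adjusted p = 0.00283). Defa30, a Paneth cell defensin, had 110.3, 303, 565 and 2726 CPM (log2 3.06 ± 0.58 SE, adjusted p = 0.0317). Defensin genes are close copies of each other, and reads may be divided among them.

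The same genes moved over the whole library, and in the enterochromaffin cells they sat in few cells. Of the 38 genes, 37 were higher in both +EIPA libraries over all kept cells, against 11% of the 9944 tested genes, and 17 were so in the other Chga/Chgb-high cells, against 10.8%. All 38 had a higher mean in all kept cells of -EIPA than in the enterochromaffin cells, against 35.3% of the tested genes. The tenth of enterochromaffin cells with most of a gene's UMIs held 86.6% of them, as a median over the 32 of these genes at 20 CPM or more, against 50.1% over all 6148 genes at that level. Apoa1 had 594, 273, 1586 and 1596 CPM over all kept cells, and 140.4, 199.5, 1054 and 189.6 in enterochromaffin cells without the doublet-scored ones, where +EIPA 2 lay between the -EIPA libraries.

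Markers of other cell types moved with EIPA in the same sums. The 14 enterocyte markers together had 2816, 4288, 11184 and 7876 CPM in enterochromaffin cells and 8514, 4757, 14983 and 13185 over all kept cells, and 4 of them were called higher, Apoa1, Apoa4 and Apoc3 among them. The 10 Paneth markers had 3376, 5502, 7770 and 20962 CPM, and 2 were called higher (Defa30 and Ang4). Of 6 tested goblet markers none was called (median 1.33). The 8 tuft markers together had 18.2, 7.96, 27.3 and 19 CPM. None of the 8 stem cell, 8 cycling or 1 non-epithelial markers tested was called. With the doublet-scored cells removed, 0 of 8204 genes were called by edgeR (254 had an unadjusted p under 0.05), and 28 of the 29 genes still tested were higher by sign, with a median log2 difference of 1.28 against 1.94 before. The part of other cells' RNA in these differences was not tested further.

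With the replicate number as a block, 93 genes were higher and 6 lower, and with the block and the doublet-scored cells removed 21 were higher and 5 lower. Of these 26, only 8 were among the 29 genes called without the block that were still tested, 1 of which changed direction. Calls made only with the block included lower Fosb (219, 55.2, 45.5 and 24.6 CPM, adjusted p = 2.65e-06 with and 0.269 without the block) and Atf3 (228, 220.3, 129 and 90.7 CPM, 0.0490 and 0.178), which encode stress-induced transcription factors. Iapp, the amylin gene, had 9.78, 30.8, 31.2 and 97 CPM and Pyy 14, 10.4, 2.17 and 1.41, with adjusted p = 0.458 and 0.148 without the block. With the block 11 of 14 tested enterocyte, 7 of 10 Paneth and 3 of 6 goblet markers were called, all of them higher, against 0.996% of all genes tested. Further block-only calls were in marker genes of other cell types, such as Muc2 (6.65e-11 and 0.0830) and Fabp2 (0.0001 and 0.107).

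**Figure D5:**
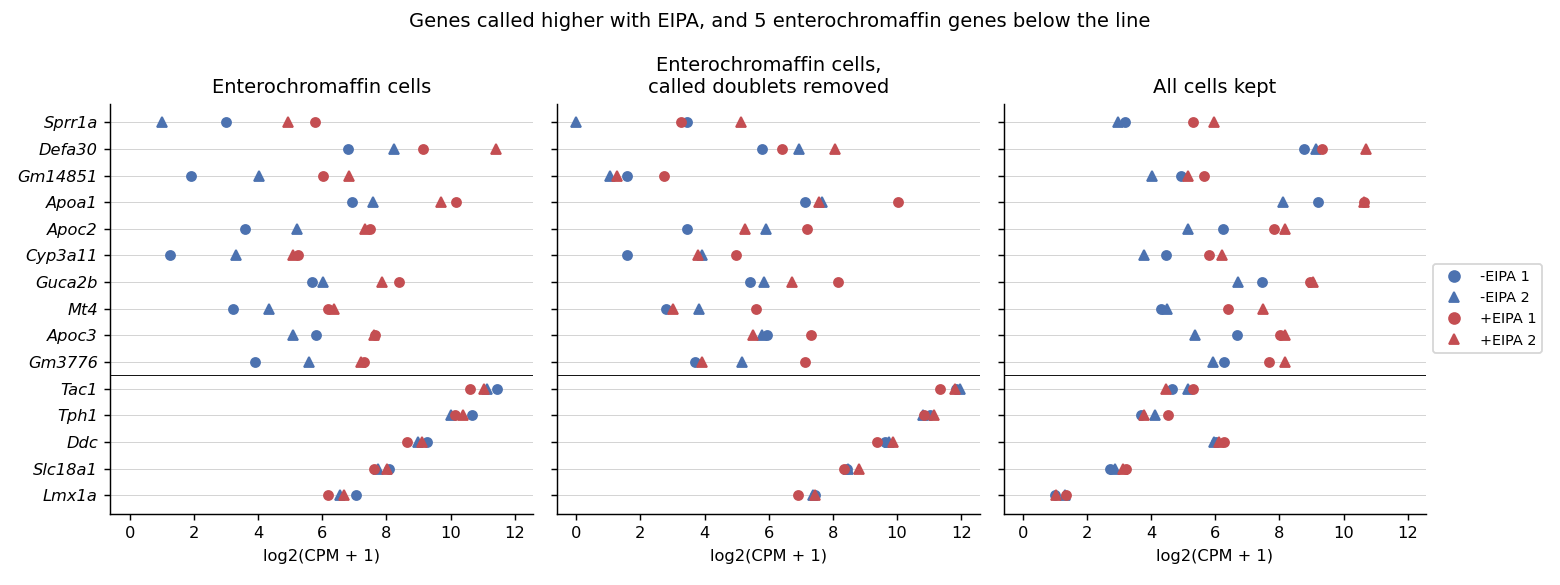
Levels as log2(CPM + 1) of the 10 genes of largest increase with EIPA and, below the line, 5 enterochromaffin genes, in enterochromaffin cells, in these cells without the doublet-scored ones, and in all kept cells, 1 point per WT library. The upper genes separate the groups in the left and right panels and, apart from Guca2b, overlap in the middle panel. Tph1 is a gene of the rule and is shown as a description only.

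Among acid-base genes, 1 of 16 was called. Slc26a6, an apical anion exchanger for bicarbonate, had 5.59, 6.47, 26.8 and 18.3 CPM (log2 2.00 ± 0.40 SE, adjusted p = 0.0436). It belongs to the 38 genes called higher, all with a higher mean in all kept cells of -EIPA than in the enterochromaffin cells. With the doublet-scored cells removed, none of the 38 was called. The 1 gene called lower was Edn1, which encodes endothelin, with 18.2, 32.3, 6.06 and 7.03 CPM (log2 -1.93 ± 0.39 SE, adjusted p = 0.0454); it was named after its values were seen, since its mean was under 20 CPM. The 10 genes of 20 CPM or more with the smallest p on the lower side did not pass the test, and they included Atf3 and Fosb (log2 -0.90 ± 0.23 and -1.71 ± 0.47, ± SE), Cdkn1c, a cell cycle inhibitor (-0.80 ± 0.24), and Gadd45a, a stress gene (-0.72 ± 0.22). Of 13 tested ATF4 targets and 13 immediate early genes none was called. Among the immediate early genes 1 had a positive estimate (median log2 -0.32). The summed level of that list was lower in both +EIPA libraries, with 4283, 3429, 2578 and 2372 CPM in enterochromaffin cells. The same held in the other Chga/Chgb-high cells (2761, 3591, 2049 and 1973 CPM) and over all kept cells (1794.5, 1986, 1170 and 1055 CPM).

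Whether EIPA acted differently on enterochromaffin cells than on the other Chga/Chgb-high cells was tested as an interaction. Of 10738 genes, 10 had a more positive EIPA effect in enterochromaffin cells (0.0931%) and 1 a more negative one (0.00931%), and 422 had an unadjusted p under 0.05. Among the 11 were Afp, the goblet cell gene Muc2 (log2 2.57 ± 0.28 SE, adjusted p = 0.000265) and the Paneth cell gene Itln1 (1.92 ± 0.21 SE, adjusted p = 0.000265). No serotonin, receptor or transcription factor gene was among them. The genes tested included Tph1 and Neurog3, which chose the cells, so nothing is drawn from their results. With doublet-scored cells removed, 4 genes were called, of which 3 were among the 11. With the replicate block Reg4 was called as well (log2 1.80 ± 0.30 SE, adjusted p = 0.0141 with the block, and log2 1.75 ± 0.65 SE, adjusted p = 1 without it).

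With 1 library each, -Dox and +Dox were compared by their values alone, and the enterochromaffin sums of 65451 and 636126 UMIs came from 9 and 44 cells. Of 4050 genes at 50 CPM or more in either, 160 were higher (3.95%) and 180 lower (4.44%) in +Dox by exact Poisson intervals that did not overlap, which cover counting error only. Tph1 had 856 and 569 CPM and Tac1 1406 and 764, a log2 ratio of -0.59 and -0.88. Fev had 413 and 199.7 CPM (log2 ratio -1.05). Chga had 794 and 1652 CPM, while Chgb had 26432 and 13482. Tph1, Chga and Chgb chose the cells, so their values are a description, and the enterochromaffin cells of the libraries differed in depth, with a median of 4286 UMIs in -Dox and 10514 in +Dox.

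The genes of largest ratio included genes of other cell types. Apoa1 had 30.6 and 1203 CPM (log2 ratio 5.30), Apoc3 15.3 and 464 and the Paneth cell gene Ang4 30.6 and 541. Zg16, a goblet cell lectin, had no UMI in -Dox, and its log2 ratio is at least 5.30 against the level that 3 UMIs give. The 14 enterocyte markers together had 2338 and 19021 CPM in these sums and 10108 and 21091 over all kept cells of the same libraries. Among the genes of lowest ratio, Ccl9 had 30 and 9 UMIs, Aurka 5 and 3 and Cdkn1c 7 and 6, and with 9 cells a single cell can set such a value. Without the doublet-scored cells 71 genes were higher and 76 lower.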

How the data were processed

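The 6 libraries held droplet 3′ single-cell RNA counts. The authors deposited gene by cell tables of UMI counts, made per the labels with Cell Ranger 6.1.2 on mm10 (GRCm38), and these whole-number counts were not normalized. The enterochromaffin cells and the gene lists were chosen with earlier results of these data known. Cells were filtered as stated above, and no barcodes were removed as doublets in the main results. Scrublet (scanpy 1.11.5) by its own threshold marked 0% of cells in 2 libraries and 7.90 to 14.2% in the other 4, so the top 10% of scores in each library were marked and removed as an alternative. Pairs of libraries shared 33 to 78 cell barcodes, at most 0.563% of the smaller.

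UMIs were summed per library and class and tested with edgeR 4.0.16 in R 4.3.3 (TMM, filterByExpr, quasi-likelihood F-test, Benjamini-Hochberg adjusted p under 0.05 over all genes tested). Most log2 differences are followed by a standard error (SE). It was derived by dividing the absolute log2 difference by the square root of the F statistic. For genes with few or no UMIs in 1 class it is a rough guide only. DESeq2 1.42.0, other size factors, no filter, other cell limits, a Chga and Chgb level of 30, Tph1 at 1 or 3 UMIs, thinning and leaving out each library were alternatives. The steps were tested on simulated data. The study tested single cells, and sums per library were used here because cells of 1 library are not replicates. The labels give replicate numbers only, and the study's source data list same-numbered -EIPA and +EIPA libraries under 1 experiment number, from which the pairing was taken. Deviations of same-numbered libraries correlated by 0.116 over 9944 genes, with 2 pairs, and no other check was made. Nothing states that the replicates came from separate animals, so p-values measure at most the spread between these libraries. Fits with both EIPA and the replicate number leave little spread per gene to measure. Their edgeR p-values rest on a spread estimated over all genes together.

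Genes were named by largest difference among those called (10 per direction at 20 CPM or more with EIPA, filled up by smallest p; 12 per direction at 50 CPM and the same direction in 6 of 6 libraries between classes; 10 per direction at 50 CPM for Dox), plus members of 16 fixed gene lists. The guide's target and some genes that the rule names are not reported here, though they stay in the counts. Gene coordinates are from GENCODE M21 on mm10. Ddit3 was left out because 2 gene identifiers carried that symbol. Binomial intervals are Clopper-Pearson, and all intervals cover counting error only.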

Additional observations from a re-analysis of the deposited data

Results flagged for a closer look

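The effect of EIPA differed between enterochromaffin and other Chga/Chgb-high cells for 11 genes by the test of the difference itself (edgeR interaction, adjusted p under 0.05). The log2 difference of the effects was largest for Afp at 6.40 (SE 0.70, adjusted p = 0.000265). Afp had 3968, 126, 1992 and 89.3 CPM in enterochromaffin cells and 106, 0.795, 0.485 and 0 in the other cells, where -EIPA 1 alone was above 1 CPM. The Paneth cell genes Defa26, Ang4, Defa30, Itln1, Defa24 and Defa17 had log2 differences of 2.86, 2.49, 2.09, 1.92, 1.88 and 1.60, and the goblet cell genes Muc2 and Spink4 2.57 and 1.92. Defa21 was the 1 gene with a lower effect in enterochromaffin cells, at -2.62 (SE 0.38, adjusted p = 0.00391).

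Muc2 had 16.8, 27.9, 42 and 193 CPM in enterochromaffin cells and 40.5, 90.2, 28.2 and 88.8 in the other cells. Doublet-scored cells made up 16.2, 26.4, 30.8 and 21.7% of the enterochromaffin cells and 21, 14, 14.9 and 12% of the other cells in the same libraries. Without them, 4 genes were called, the Defa21 difference was 3.20 (adjusted p = 1) and that of Defa30 was -0.0896. The part of such cells in the 11 differences was not tested further.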

How the results depend on the processing

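With 39 genes called for EIPA in enterochromaffin cells, the count was 21 with library sizes in place of TMM (which moved the median of all genes to -0.12 on the log2 scale), 113 with no filter, 11 with a Chga and Chgb level of 30, 99 with the replicate block, and 0 without doublet-scored cells. Leaving out 1 library gave 48 to 173, the highest without -EIPA 2, with 101 without -EIPA 1. With the block fitted by DESeq2 26 genes were called, against 26 with DESeq2 and no block. For the classes, 831 calls became 1397 with no filter and 446 to 1038 without 1 library, with 446, 467 and 509 without +EIPA 1, +EIPA 2 and -EIPA 2. There were 1204 with a Chga and Chgb level of 30, 1181 in the 4 WT libraries only and 604 with DESeq2. The level of 30 took the other class from 233 to 124 cells in -EIPA 1, and the enterochromaffin cells from 99 to 95. For the interaction, 11 calls became 7 with DESeq2, 47 with no filter, 4 without doublet-scored cells, 48 with a Chga and Chgb level of 30 and 30 with stricter cell limits, and 19 to 243 without 1 library (243 without -EIPA 2, 35 without -EIPA 1, 30 without +EIPA 2, 19 without +EIPA 1). Where 1 WT library remained in a group, it was assumed to vary like the others. The cause of these changes was not tested.

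The EIPA ratio of the share of cells ran from 0.816 without replicate 1 to 1.88 without replicate 2, and that of Chga/Chgb-high cells from 1.06 to 1.52. The 340 Dox differences were 147 without doublet-scored cells. The Tac1 share difference of -10.2 points was -0.395 unthinned. Differences that changed sign were Cck (-0.536 points at 1 UMI), Ucn3 (0.773 points without doublet-scored cells, 0.222 thinned to 2000 UMIs), Afp (0.00615 points without doublet-scored cells), Reg4 with EIPA (-0.11 without -EIPA 2, up to 1.04 without -EIPA 1), and Defa21 and Defa30 in the interaction (3.20 and -0.0896 without doublet-scored cells). For single genes, 891 of the class comparison's alternative values kept direction and side of the threshold and 66 lost the call; with EIPA 332 did, 50 lost and 14 gained it; in the interaction 106 did and 22 lost it. Beyond the changes printed with each result, the block changed no other call of a named hormone, serotonin or receptor gene.

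Depth limits most genes in the 9 enterochromaffin cells of -Dox. Thinning to 2000 UMIs, the block with DESeq2 and the block without doublet-scored cells were added after the data were seen.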

Other observations

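Levels in enterochromaffin cells differed between the replicate numbers. Between replicate 2 and replicate 1, 83 of 9944 genes were called with the EIPA term in the fit and 25 without it (edgeR), a comparison added after the values were seen. Afp had 3968, 126, 1992 and 89.3 CPM in -EIPA 1, -EIPA 2, +EIPA 1 and +EIPA 2 and was lower in both second libraries, with a log2 difference of -4.74. Nts had 55.9, 6.47, 58 and 4.22 CPM, Scg3, a granule protein, 95, 15.4, 45.9 and 14.8, and Slc18a2, the neuronal vesicular monoamine transporter, 41.9, 6.47, 18.6 and 7.03, each higher in both first libraries. Cartpt had 122, 3.98, 49.8 and 24.6 CPM. Gip went the other way, with 29.3, 314, 94.8 and 188 CPM. Without the EIPA term the adjusted p (edgeR) was 0.261 for Gip, 0.261 for Cartpt and 0.194 for Slc18a2, so these 3 calls were lost. Markers of other cells also differed, with replicate 2 minus replicate 1 on the log2 scale at 4.38 for Defa21, 3.70 for Defa17, 1.89 for Defa30, 1.77 for Muc2 and 1.73 for Zg16, and the Paneth markers together had 3376, 5502, 7770 and 20962 CPM. Without the EIPA term Defa21 and Defa17 stayed called (adjusted p = 0.0382 and 0.0395) and Defa30, Muc2 and Zg16 did not (0.979, 0.979 and 1.000, edgeR). Their part was not tested. Differences of preparation and of any other step that shares the replicate number cannot be told apart.

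Trpa1 and Ucn3 were also lower in both second libraries, with 194, 66.1, 118 and 70.3 and 235, 57.2, 127 and 112 CPM, and were called with the EIPA term but not without it (adjusted p = 0.165 and 0.781, edgeR). Afp, Trpa1 and Ucn3 are 3 of the genes that were high in Reg4-high cells, which made up 38.4, 28.2, 48.2 and 44.2% of the class in these libraries. Within the Reg4-high cells Afp still had 11195, 554, 5007 and 245 CPM.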
